A study of Mus musculus with 4 samples.

Results

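The proteasome genes of the mouse testis were examined in 4 RNA-sequencing libraries, 2 from Fam46c knockout (KO) testes and 2 from wild-type (WT) testes. A gene was counted as a member when its symbol began with Psm, a letter from a to g and a number. Psmc3ip, which encodes a meiotic recombination cofactor and shares only the letters of its symbol, was left out. The rule gave 48 of the 22552 symbols in the deposited tables, each on a single row. By role these were 8 α and 7 constitutive β subunit genes of the core, 4 inducible or thymic β genes, 9 base genes and 8 lid genes. The remaining members were 4 activator genes, the inhibitor gene Psmf1, 4 chaperones of core assembly and 3 of base assembly.

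Both groups were whole testes of adult male mice on a DBA/C57 F1 background, and they differed by the labels in the Fam46c genotype alone. FAM46C is a noncanonical poly(A) polymerase, and the stated aim was to find genes with different testis expression in KO and WT mice. The labels state neither which piece of the gene was altered nor whether the libraries of a genotype came from separate animals. The p-values therefore reflect library-to-library spread, which can be technical. A whole testis mixes germ cells of all stages with somatic cells, so fewer cells of a type and less RNA per cell cannot be told apart in any value below.

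The proteasome degrades proteins tagged with ubiquitin. Its core is a barrel of stacked rings, with α subunits at the ends forming a gate and β subunits inside carrying the proteolytic sites. A regulatory particle caps the core: ATPases of the base unfold the substrate, and the lid removes its ubiquitin. Immune cells and cells exposed to interferon can swap the catalytic β subunits for inducible ones. Male germ cells use variants of their own, an α paralog encoded by Psma8 and the activator encoded by Psme4, which has been linked to histone degradation in spermatids.

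Values were in FPKM, fragments scaled by transcript length and by the depth of the library, a scale that corrects for transcript length and so allows levels of different genes to be set side by side. Total FPKM was 489702 to 528756 per library, and steps left by whole fragments in low values put the depth of KO replicate 1, KO replicate 2 and WT replicate 1 at 0.781, 0.905 and 0.901 of WT replicate 2. Fam46c itself stood at 130.5 and 129.9 FPKM in KO and at 236 and 134 FPKM in WT (log2 fold change -0.45, SE 0.21, limma adjusted p = 1.00). Since the altered piece is unknown, these values do not check the labels. Germ cell markers were present in every library: the 8 spermatocyte markers summed to 536 to 565 FPKM in KO and 541 to 567 FPKM in WT, and the 6 late spermatid markers to 54842 to 68233 FPKM in KO and 47191 to 61680 FPKM in WT. The summed Sertoli and the summed myoid and endothelial markers also overlapped between the groups. The Leydig sum was 301 to 618 FPKM in KO and 1263 to 1375 FPKM in WT, most of it Insl3, the 1 called Leydig marker. Without Insl3 the other 5 summed to 112 to 238 FPKM in KO and 164 to 239 FPKM in WT, and overlapped. The blood sum did not overlap, at 8.73 to 12.6 FPKM in KO and 40.7 to 50.6 FPKM in WT. Of the 4 tested blood markers limma called 2, both lower in KO. These were Hba-a1 (log2 fold change -3.77, adjusted p = 3.8e-06) and Beta-s (-2.61, adjusted p = 1.3e-05). The part of these cell types in the proteasome values was not tested.

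The bases upstream of 4 members are shown because these genes recur in the results: the constitutive catalytic genes Psmb5 and Psmb6, the activator gene Psme4, and Psma5, the α gene with the lowest level. Each run reads 5′ to 3′ on the gene's strand and was taken from RefSeq windows of build GRCm38.p6. It starts 250 bases before the annotated start and stops before any letters found in a GENCODE M21 transcript. Capitals mark the motif TGACNNNGC, the core of the element bound by NFE2L1, a factor known to activate proteasome genes.
Psmb5: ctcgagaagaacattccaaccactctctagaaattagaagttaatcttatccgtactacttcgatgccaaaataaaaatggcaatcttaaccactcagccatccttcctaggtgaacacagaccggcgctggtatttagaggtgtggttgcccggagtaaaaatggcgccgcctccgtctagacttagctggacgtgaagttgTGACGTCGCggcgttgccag
Psmb6: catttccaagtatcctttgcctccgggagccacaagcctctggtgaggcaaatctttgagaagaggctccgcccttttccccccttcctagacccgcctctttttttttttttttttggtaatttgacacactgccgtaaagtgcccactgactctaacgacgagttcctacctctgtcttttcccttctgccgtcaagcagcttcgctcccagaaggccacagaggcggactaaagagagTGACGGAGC
Psme4: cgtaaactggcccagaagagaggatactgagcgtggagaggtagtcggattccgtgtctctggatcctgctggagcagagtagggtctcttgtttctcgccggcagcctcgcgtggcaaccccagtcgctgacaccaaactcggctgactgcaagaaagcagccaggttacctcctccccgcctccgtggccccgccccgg
Psma5: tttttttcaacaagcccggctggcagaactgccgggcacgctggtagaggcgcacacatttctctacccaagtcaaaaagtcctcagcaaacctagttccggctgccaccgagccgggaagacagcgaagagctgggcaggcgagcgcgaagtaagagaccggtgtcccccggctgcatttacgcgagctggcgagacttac

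These stretches lie at chr14:54618023-54618245 on the minus strand and at chr11:70525107-70525356, chr11:30771525-30771725 and chr3:108256676-108256877 on the plus strand. Windows were matched for 40 of the 48 members, 43 windows in all. On either strand, TGACNNNGC stood in 5 member windows (11.6%), those of Psmb5, Psmb6, Psmc6, Psmd9 and Psmd12, and in 10.2% of all 32851 windows of the same 250 bases. CCAAT stood in 32.6% of member windows and 33.8% of all windows. TGACGTCA, the full element bound by CREB and CREM, was in 0 member windows and in 1.5% of all windows, and its first letters can coincide with those of TGACNNNGC. TATAAA was in 9.3% of member windows and 12.4% of all. These shares describe letters, not bound sites.

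Proteasome transcripts were abundant in the testis, but the subunits of 1 particle were listed at very different levels. Averaged over the 4 libraries, 8 members were at 100 FPKM or more, 28 at 10 to 100, 8 at 1 to 10 and 4 under 1 FPKM. The order of the levels was nearly the same in all libraries. Over the 48 members, Spearman's rho between any 2 libraries was 0.993 to 0.996, across genes that share each library and are not independent replicates. Variation between libraries was small beside these differences, with a median coefficient of variation of 8.28% over the members with a mean of at least 1 FPKM.

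**Figure D1:**
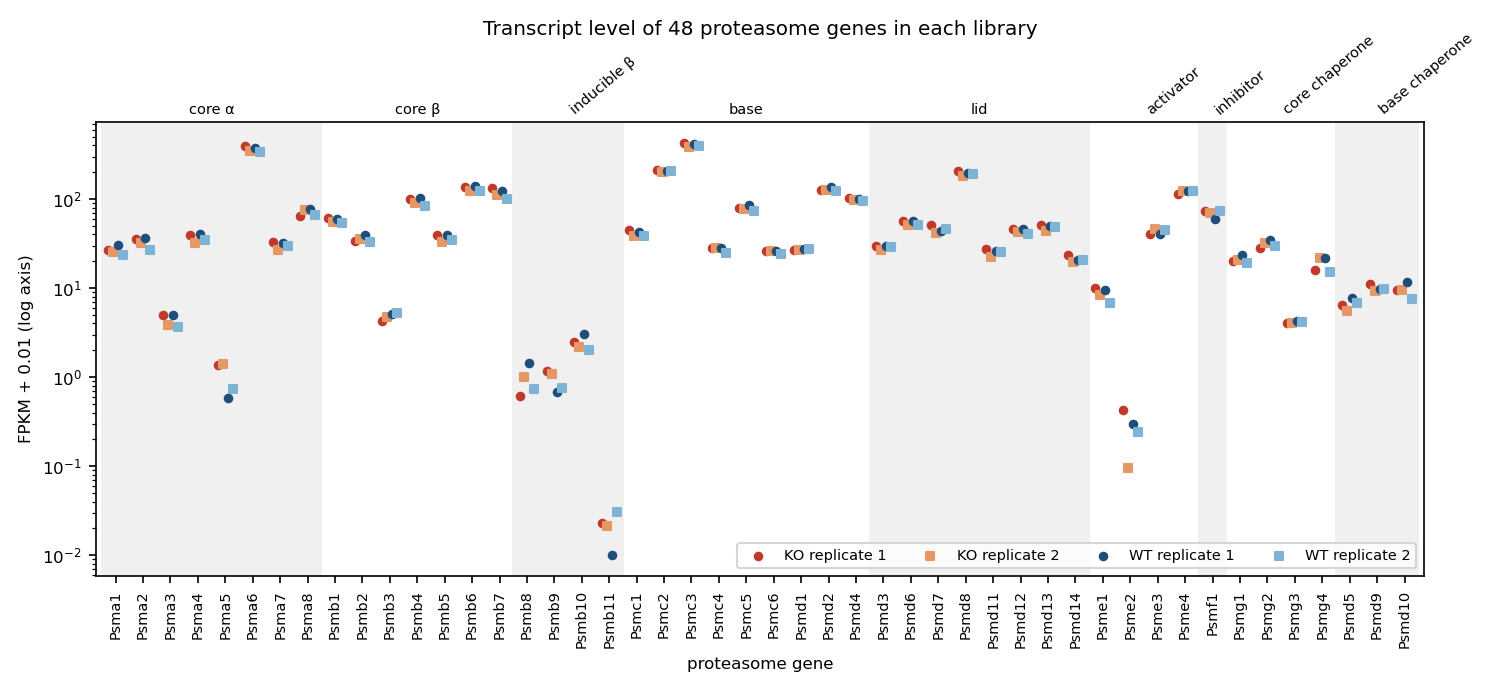
Level of each of the 48 proteasome genes in KO replicates 1 and 2 and WT replicates 1 and 2, as FPKM + 0.01 on a log axis, grouped by role. Points of 1 gene lie close together except at the low Psma5, Psmb8, Psmb11 and Psme2, while genes of 1 ring or particle differ widely, from 1.014 FPKM for Psma5 to 362 FPKM for Psma6 among the α genes.

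Among the α genes, which build the outer rings, Psma6 was highest at 394 and 346 FPKM in KO and 371 and 337 FPKM in WT. Psma8, the germ cell paralog of Psma7, came next in all 4 libraries. It was at 65.3 and 75.7 FPKM in KO libraries and at 76.9 and 65.9 FPKM in WT libraries. The groups overlapped, since each held 1 library near 65 and 1 near 76 FPKM. Psma7, its counterpart in somatic cells, was at 32.5 and 26.9 FPKM in KO and at 32.0 and 29.7 FPKM in WT. Psma8 was therefore 2.01-fold and 2.82-fold above Psma7 in the KO libraries and 2.41-fold and 2.22-fold above it in the WT libraries. As a share of the pair, Psma8 made up 70.3% ± 4.996 in KO and 69.8% ± 1.22 in WT (SD, n = 2 each). The log2 fold change of Psma8 was -0.02 (SE 0.14, 95% interval -0.32 to 0.29) and that of Psma7 -0.06 (SE 0.14, -0.37 to 0.25), both with a limma adjusted p of 1.00.

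The remaining α genes Psma1, Psma2 and Psma4 averaged 26.4 to 36.5 FPKM over the libraries. Psma3 and Psma5 stood far below them. Psma3 was at 4.99 and 3.88 FPKM in KO and at 4.92 and 3.69 FPKM in WT. Psma5 was at 1.37 and 1.38 FPKM in KO libraries and at 0.572 and 0.730 FPKM in WT libraries. Both KO values lay above both WT values, and no other tested member did so. On the log2 scale Psma5 differed by 0.53 (SE 0.16), with an unadjusted p of 0.00706 and a limma adjusted p of 1.00, so it did not pass. Its mean in WT was 0.651 FPKM, under the filter of 1, and it entered the test only through the KO libraries. At the estimated depth, these values rest on about 28.8 and 33.5 fragments in KO and about 13.9 and 19.6 in WT.

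Low core values coincided in part with genes that have near copies. Of the 75-base windows of the longest Psma5 transcript in GENCODE M21, 39.8% occur letter for letter in transcripts of other genes. The pseudogenes Gm12989 and Gm8394 match at least 50% of it at 95% identity or more, and neither is a symbol in the deposited tables. Psmb3, at 4.23 and 4.74 FPKM in KO and 5.14 and 5.24 FPKM in WT, shared 33.1% of its windows and had 3 such pseudogenes. Psma3 shared 21.3%, with no such copy. Other core genes with shared windows were at both low and higher levels. Psmb8 and Psmb9 shared 3.2% and 10.8%, with no such copy, and averaged 0.935 and 0.915 FPKM. Psmb5 shared about as much as Psma5 and had 1 pseudogene copy, and averaged 36.7 FPKM. Psmb7 shared 24.1%, with no such copy, and averaged 117 FPKM. Psma4 shared 16.7%, had 1 pseudogene copy and averaged 36.5 FPKM. In all, 8 members had a near-identical gene and 29 shared no window. No source used here says how the deposited values divided such fragments, and the part of these copies in the low values was not tested.

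Constitutive β genes, which line the proteolytic chamber, summed to 480 ± 37.4 FPKM in KO and 472 ± 54.5 FPKM in WT (SD, n = 2 each). Psmb6, which carries the caspase-like site, was at 136 and 125 FPKM in KO and at 140.1 and 123 FPKM in WT. Psmb7, with the trypsin-like site, was at 132 and 111 FPKM in KO and at 124 and 101 FPKM in WT. The chymotrypsin-like subunit gene Psmb5 was at 39.9 and 32.7 FPKM in KO and at 39.5 and 34.9 FPKM in WT. In all 3 the groups overlapped, and replicate 1 was above replicate 2 in both genotypes. Their log2 fold changes were -0.01 for Psmb6, 0.11 for Psmb7 and -0.04 for Psmb5 (SE 0.13 to 0.15, limma adjusted p = 1.00 for each). Of the structural β genes, Psmb4 and Psmb1 averaged 93.7 and 57.2 FPKM, and Psmb2, with a log2 fold change of -0.06 (SE 0.14), averaged 35.3 FPKM.

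Inducible β genes were close to the lower limit of the data. Psmb10, the counterpart of Psmb7, was at 2.50 and 2.16 FPKM in KO and at 3.03 and 1.99 FPKM in WT (log2 fold change -0.06, SE 0.18, limma adjusted p = 1.00). Psmb8, the counterpart of Psmb5, was at 0.600 and 0.992 FPKM in KO and at 1.42 and 0.726 FPKM in WT. Psmb9, the counterpart of Psmb6, was at 1.15 and 1.08 FPKM in KO and at 0.669 and 0.753 FPKM in WT. The Psmb9 groups did not overlap, while those of Psmb8 and Psmb10 did. Psmb8 and Psmb9 had means of 0.935 and 0.915 FPKM, just under the filter, whereas Psma5 at 1.014 FPKM was just above it. With no filter, Psmb9 had a log2 fold change of 0.31, with an unadjusted p of 0.0260 and a limma adjusted p of 1.00. Psmb11, the thymus-specific subunit gene, was listed at 0 in WT replicate 1 and did not exceed 0.0206 FPKM elsewhere, about 1.9 fragments at most.

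Set beside their constitutive partners, the inducible genes were a minor part of each pair in every library. Psmb8 was 1.48% and 2.94% of the sum with Psmb5 in KO and 3.47% and 2.04% in WT. Psmb9 was 0.840% and 0.863% of the sum with Psmb6 in KO and 0.475% and 0.607% in WT. Psmb10 was 1.86% and 1.91% of the sum with Psmb7 in KO and 2.38% and 1.94% in WT. The Psmb9 share was higher and the Psmb10 share lower in both KO libraries, whereas the Psmb8 shares overlapped. The Psmb10 shares came as near as 1.91% in KO and 1.94% in WT. Psmb9 rested on about 17.7 to 28.8 fragments per library. No share was tested, and the levels of 20.1% of all tested symbols did not overlap between the groups. The class II genes Cd74, H2-Aa, H2-Ab1 and H2-Eb1, markers of antigen-presenting cells, were above 0 in each library. On the log2 scale their KO means differed from WT by -0.51, -0.57, -0.25 and -0.30, each with an adjusted p of 1.00 in limma. H2-Aa was at 2.86 and 3.82 FPKM in KO and at 6.83 and 4.27 FPKM in WT and did not overlap, while the other three did. Their part in the inducible subunit values was not tested.

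**Figure D2:**
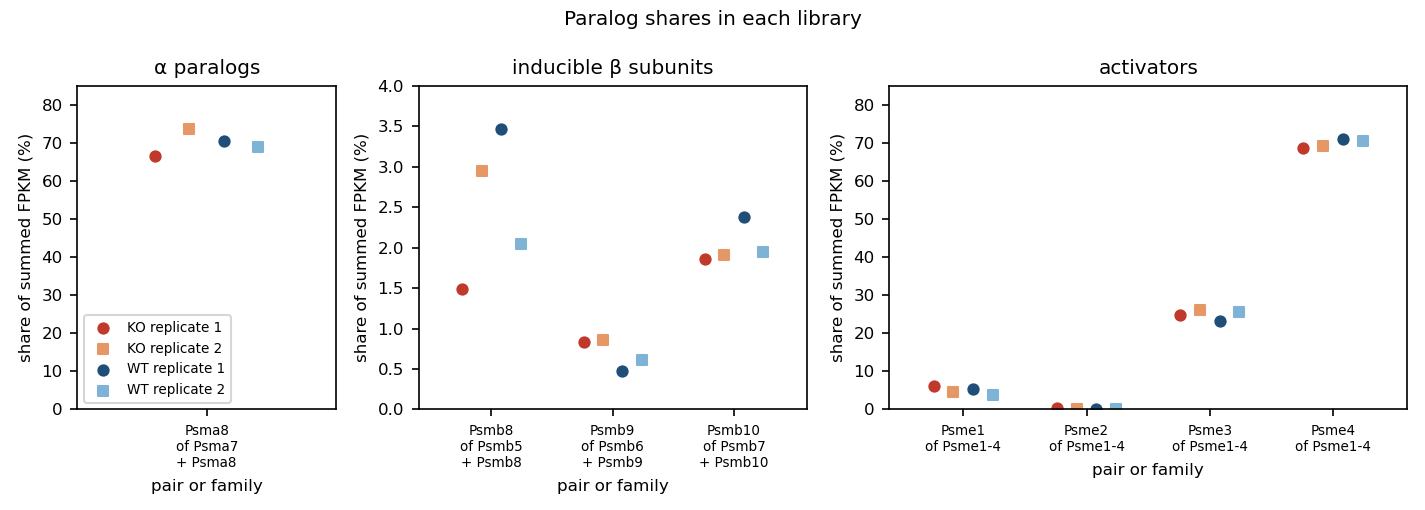
Shares of summed FPKM in percent for Psma8, for the inducible β genes against their constitutive partners, and for the activator genes, with 1 point for each KO and WT library. Psma8 held 66.7% to 73.8% of its pair and Psme4 68.7% to 71.1% of the activator sum, while no inducible β gene passed 3.47%.

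Genes of the base were the most abundant class, with sums of 1039 ± 51.4 FPKM in KO and 1036 ± 42.8 FPKM in WT. Psmc3, an ATPase of the ring, was the highest of all members at 429.9 and 384 FPKM in KO and at 413 and 391.9 FPKM in WT. Psmc2, another ATPase, was at 209 and 199.8 FPKM in KO and at 206 and 206 FPKM in WT. The other 4 ATPase genes, Psmc1, Psmc4, Psmc5 and Psmc6, averaged 25.5 to 79.5 FPKM. Psmd2, a scaffold of the base, averaged 128 FPKM and the ubiquitin receptor gene Psmd4 98.7 FPKM, against 27.3 FPKM for Psmd1, the other large scaffold. Psmd1 was at 27.0 and 26.9 FPKM in KO and at 27.8 and 27.4 FPKM in WT, the smallest spread between libraries among the tested members (coefficient of variation 1.43%). Its KO values lay below its WT values, with a log2 difference of -0.03 (SE 0.13, limma adjusted p = 1.00).

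Lid genes summed to 462 ± 45.5 FPKM in KO and 460 ± 10.4 FPKM in WT. Psmd8, a lid scaffold subunit gene, stood out at 208 and 182 FPKM in KO and at 193 and 192 FPKM in WT. Psmd14, which encodes the deubiquitinase of the lid, was the lowest, at 23.3 and 19.7 FPKM in KO and at 20.6 and 20.4 FPKM in WT. The remaining lid genes, Psmd3, Psmd6, Psmd7, Psmd11, Psmd12 and Psmd13, averaged 25.4 to 54.0 FPKM. The groups of all 8 lid genes overlapped, and the log2 fold changes ran from -0.06 to 0.06. For each of them KO replicate 1 was above KO replicate 2.

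The activators open the gate of the core without ATP. Psme4 was the main activator transcript, at 112 and 124 FPKM in KO and at 124 and 122 FPKM in WT. Its KO replicate 1 was the low value, and the groups overlapped (log2 fold change -0.06, SE 0.12, 95% interval -0.33 to 0.22, limma adjusted p = 1.00). Psme3, which encodes the nuclear activator, was at 40.8 and 46.5 FPKM in KO and at 40.6 and 44.3 FPKM in WT (log2 fold change 0.04, SE 0.13, limma adjusted p = 1.00). Psme1, a component of the interferon-responsive activator, was at 10.1 and 8.25 FPKM in KO and at 9.49 and 6.71 FPKM in WT (log2 fold change 0.17, SE 0.18, limma adjusted p = 1.00). Its partner Psme2 was listed at 0.412 and 0.0848 FPKM in KO and at 0.287 and 0.230 FPKM in WT, and 51.7% of its windows occur in other genes, with Psme2b a near-identical one.

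Psme4 made up 68.7% and 69.3% of the summed activator FPKM in KO and 71.1% and 70.4% in WT. Both KO shares were below both WT shares, by 1.77 percentage points between the means. No test was made of this share. With 2 libraries per group, 20.1% of all tested symbols also did not overlap in level. Of the other shares examined, those of Psmb9 and Psmb10 did not overlap and the rest did. The inhibitor gene Psmf1 was at 72.6 and 70.2 FPKM in KO and at 59.1 and 73.8 FPKM in WT, with WT replicate 1 the low value (log2 fold change 0.11, SE 0.14, limma adjusted p = 1.00).

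Assembly chaperones help the rings and the base to form. Psmg1 and Psmg2, whose products pair to build the α ring, averaged 20.8 and 31.2 FPKM, and the log2 difference of Psmg2 was -0.07 (SE 0.14, limma adjusted p = 1.00). Psmg3, of the second chaperone pair, was at 4.08 and 4.01 FPKM in KO and at 4.26 and 4.12 FPKM in WT. Its partner Psmg4 was at 15.9 and 21.8 FPKM in KO and at 21.9 and 15.2 FPKM in WT. The base chaperones Psmd9 and Psmd10 averaged 10.01 and 9.58 FPKM. Psmd5, the chaperone gene of the base with the lowest level, was at 6.38 and 5.56 FPKM in KO and at 7.81 and 6.81 FPKM in WT. Both of its KO values were below both WT values, with a log2 difference of -0.25 (SE 0.16, limma adjusted p = 1.00).

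Across the 44 members that passed the filter of a mean of at least 1 FPKM, limma called 0 genes in either direction at an adjusted p under 0.05, with 0.114% of all 12258 tested symbols called (0.0245% higher and 0.0897% lower in KO). At an unadjusted p under 0.05 there was 1 member, Psma5, beside 2.02% of all tested symbols. Psma5 was the 1 member with both KO values above both WT values, where 9.47% of all symbols were so placed. The 4 members with both KO values below both WT values were Psmb3, Psmd1, Psmd5 and Psmg3, where the share of all symbols was 10.6%. Together 5 members did not overlap between the groups, beside 20.1% of all tested symbols. The log2 difference of Psmb3 was -0.18 (SE 0.15, limma adjusted p = 1.00). The largest positive values after Psma5 were those of Psme1, Psma2 at 0.11 (SE 0.16), Psmb7 and Psmf1.

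The median log2 fold change of the tested members was 0.00, with 23 positive and 21 negative values, beside a median of -0.01 over all tested symbols. The median size without sign was 0.05 among members and 0.07 among all tested symbols. For 42 of the 44 members the 95% interval lay wholly within a 1.5-fold change of FPKM + 1 either way. The exceptions were Psma5, whose interval ran from 0.17 to 0.88, and Psmd5, from -0.59 to 0.08. These intervals are per gene and not adjusted for the number of genes. For members of low level, a 1.5-fold change of FPKM + 1 is a wider change in FPKM itself. The sum over all 48 members was 2900 ± 161 FPKM in KO and 2871 ± 164 FPKM in WT (SD, n = 2 each), or 0.554% to 0.599% of total FPKM in any library.

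**Figure D3:**
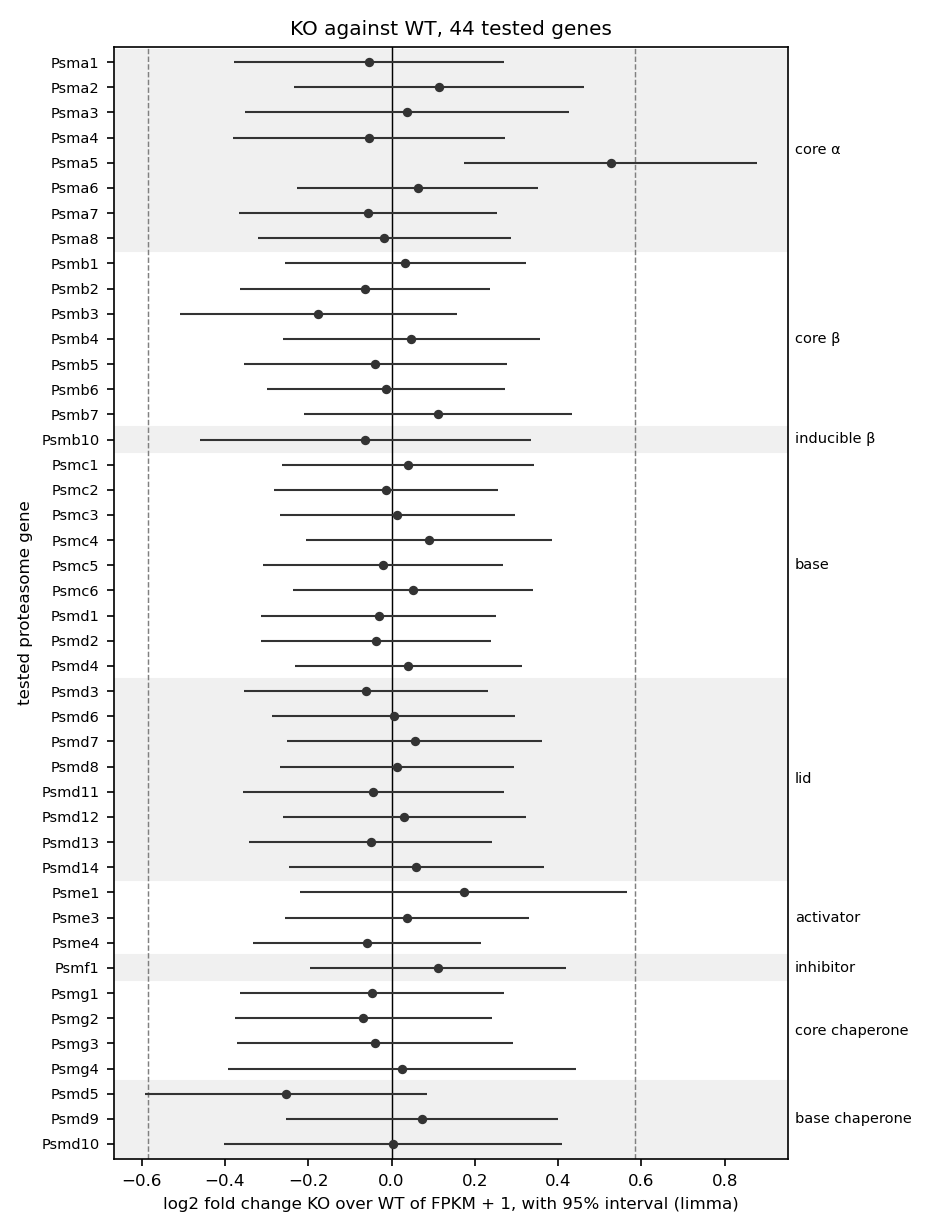
Log2 fold change of KO over WT in FPKM + 1 for the 44 tested proteasome genes, grouped by role. Bars are 95% intervals from limma, and dashed lines mark a 1.5-fold change of FPKM + 1. All intervals but that of Psma5 span 0, and only those of Psma5 and Psmd5 reach past a dashed line.

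Within each genotype, most members were higher in replicate 1. WT replicate 1 was above WT replicate 2 in 38 of the 44 tested members (86.4%), against 65.3% of all tested symbols, with a median log2 difference of 0.15 among members and 0.07 among all. KO replicate 1 was above KO replicate 2 in 34 members (77.3%), against 53.7% of all tested symbols, with medians of 0.13 and 0.02. The sum over all members was 3013 and 2786 FPKM in KO replicates 1 and 2, and 2987 and 2755 FPKM in WT replicates 1 and 2. Psma8 and Psme4 did not follow this order in KO, where both were lower in replicate 1. The same held for Psma5, Psmb2, Psmb3, Psmc4, Psme3, Psmg1, Psmg2 and Psmg4. Leaving out 1 library moved the median log2 fold change of the members to between -0.07 and 0.08.

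**Figure D4:**
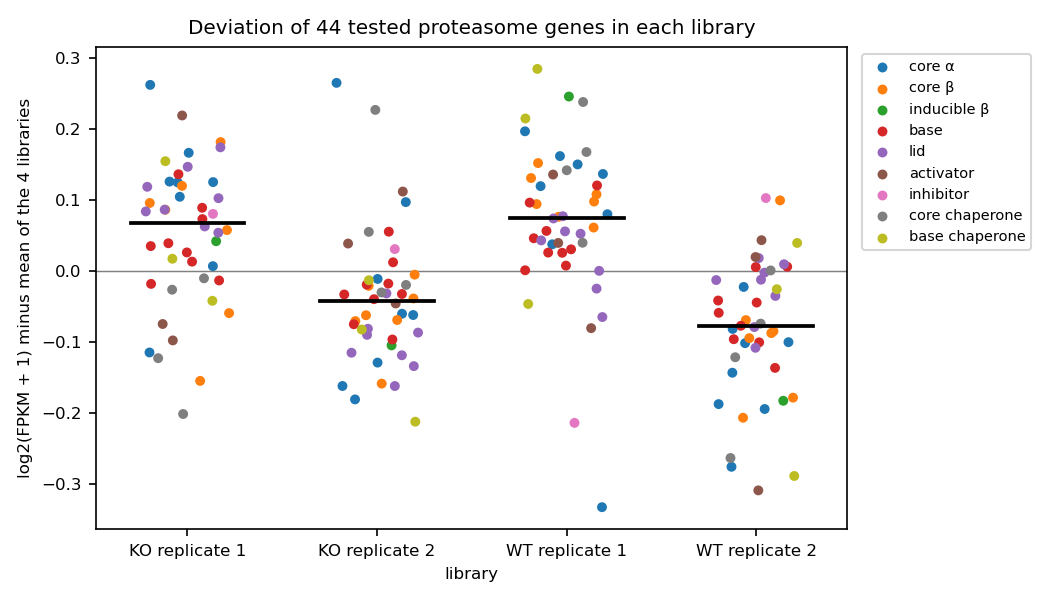
Deviation of log2(FPKM + 1) from the mean of the 4 libraries for the 44 tested members, coloured by role, with black bars for the median of each KO and WT library. Both replicate 1 libraries have medians above 0 and both replicate 2 libraries below 0.

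Genes that feed or serve the proteasome were also without a call. Of 24 listed genes of associated proteins and shuttles, 23 were tested, and limma called 0 in either direction and 0 at an unadjusted p under 0.05, beside 0.114% and 2.02% of all tested symbols (list median log2 fold change 0.00). Ufd1l, a cofactor of the unfoldase VCP, was at 47.1 and 49.1 FPKM in KO and at 40.1 and 43.8 FPKM in WT (log2 fold change 0.20, SE 0.13, limma adjusted p = 1.00). AI314180, the proteasome adaptor also called ECM29, differed by -0.17 on the log2 scale (SE 0.15, limma adjusted p = 1.00). Adrm1 and Shfm1 encode a ubiquitin receptor of the base and a small lid subunit that lack a Psm symbol, and are named with their values known. Adrm1 was at 6.30 and 7.51 FPKM in KO and at 6.95 and 7.84 FPKM in WT, and Shfm1 at 229.9 and 169.7 FPKM in KO and 198 and 153 FPKM in WT.

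Among 25 genes of ubiquitin and its enzymes, all tested, limma called 0 in either direction, and 0 had an unadjusted p under 0.05, beside 0.114% and 2.02% of all tested symbols (list median -0.01). The smallest p belonged to Ube2d1, a ubiquitin-conjugating enzyme, at 2.38 and 2.76 FPKM in KO and at 3.35 and 3.16 FPKM in WT (log2 fold change -0.26, SE 0.16, limma adjusted p = 1.00). Ube2b, a conjugating enzyme needed for spermatogenesis in mice, was at 56.7 and 63.4 FPKM in KO and at 56.7 and 54.3 FPKM in WT, a log2 difference of 0.11 (SE 0.13, limma adjusted p = 1.00). Ubb, a polyubiquitin gene also named with its values known, was listed at 2490.2 and 2221 FPKM in KO and at 2450.3 and 2392 FPKM in WT.

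Antigen processing and interferon response genes, with which the inducible subunits act, had 10 of 20 members tested and 0 called, with 2 at an unadjusted p under 0.05, beside 0.114% and 2.02% of all tested symbols (list median -0.02). Both KO values lay below both WT values in 4 of the 10, beside 10.6% of all tested symbols. B2m, the light chain of class I molecules, was at 30.3 and 27.8 FPKM in KO and at 49.2 and 40.6 FPKM in WT. The groups did not overlap, and the log2 fold change of -0.61 (SE 0.14) had a limma adjusted p of 0.365. H2-D1, a class I heavy chain gene, was at 11.0 and 9.15 FPKM in KO and at 15.4 and 13.4 FPKM in WT (log2 fold change -0.48, SE 0.15, limma adjusted p = 1.00). H2-K1, another, was at 32.2 and 31.2 FPKM in KO and at 40.4 and 35.0 FPKM in WT (-0.24, SE 0.13, limma adjusted p = 1.00). The 10 macrophage and antigen-presenting cell markers summed to 436 to 448 FPKM in KO and 375 to 410 FPKM in WT, most of it Aif1. Without Aif1 the other 9 summed to 31.7 and 32.8 FPKM in KO and to 47.5 and 34.2 FPKM in WT, with both KO sums below both WT sums. Of the 7 tested markers, 5 had a negative log2 fold change, with a list median of -0.25, and 0 were called by limma. Their part in the class I values was not tested.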

How the data were processed

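The authors deposited 1 table of FPKM per library, with gene symbols and no coordinates, per the file headers. Per the submitters' processing notes, the tools were TopHat2 2.0.6, Cufflinks 2.0.2 and Cuffdiff and the build was mm9, with no roles stated. Annotation, strand setting, filters and treatment of fragments with several alignments were given in no source used here. Symbols on more than 1 row (259) were summed. The test used log2(FPKM + 1) of 12258 symbols whose mean reached 1 FPKM. The groups were compared in limma 3.58.1 under R 4.3.3, with variances moderated along an intensity trend, two-sided p-values and Benjamini-Hochberg adjustment over all tested symbols. A fold change on this scale understates the change of low genes. The script was checked on simulated data with known changes. It called 20 of 50 genes changed 1.5-fold, so most changes of that size went uncalled, and 50 of 50 changed 2-fold. It also called 22 unchanged genes among the 12258 simulated. The fit of the 4 libraries had 2 residual and 9.48 prior degrees of freedom.

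The steps that whole fragments leave in low values gave relative depths: 80.7% to 82.7% of ratios to WT replicate 2 lay within 1% of a ratio of whole numbers, against 4.5% to 5.2% after a 5% shift. With lengths of single-transcript genes, 1 FPKM over 1 kb came to about 17 fragments in the shallowest library, so counting alone gives an error of 24.3% there. Near copies were sought with BLAST 2.17.0 among GENCODE M21 transcripts (GRCm38), matched by symbol for all 48 members.

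Members and gene lists were chosen with earlier results of these data known. Genes given with full statistics were the germ cell and catalytic genes and their paralogs, called members, the 5 most positive and 5 most negative members, and 3 genes of smallest p per pathway list, some of which are not reported here. Class sums and shares are described with no test. Alternatives covered the pseudocount, filter, variance model, scaling, repeated symbols, a block for the replicate number and each library left out.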

Additional observations from a re-analysis of the deposited data

How the results depend on the processing

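Limma called 0 of the tested members under all 16 alternatives. The count over all symbols was 14. It was 2 with no filter, 9 with a mean of at least 5 FPKM, 8 with robust variance, 6 after median scaling, 7 after total scaling, 6 after quantile normalization, and 9 to 20 with 1 library left out. Psma5 reached the filter of 1 FPKM only through its KO libraries. In the fits of all 4 libraries that tested it, its unadjusted limma p was under 0.05 and its adjusted p 0.534 or more. These fits reuse the same values and are not separate support. The log2 fold change of Psma5 was 0.98 with a pseudocount of 0.1 and 0.17 with one of 5. A mean of at least 5 FPKM left it untested.

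The replicate numbers of the titles are not stated to pair libraries. Over all tested symbols, the deviations of same-numbered libraries were not correlated from gene to gene (r = -0.03). A shift shared by all symbols does not enter this r, so it cannot decide whether there was one. Most members were higher in replicate 1 of both genotypes. With the replicate block limma called 68 symbols, 0 of them members, and B2m passed (adjusted p = 0.00635, against 0.357 to 1.00 under its other alternatives). No other listed gene given with full statistics passed in that fit.

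With 1 library left out, log2 fold changes changed sign for 39 of the 44 tested members, all but Psma5, Psmb3, Psmd1, Psmd5 and Psmg3. Among members given with full statistics these were 13: Psma2 (-0.105 to 0.3323), Psma7 (-0.19 to 0.0757), Psma8 (-0.128 to 0.0926), Psmb2 (-0.184 to 0.0552), Psmb5 (-0.178 to 0.1003), Psmb6 (-0.104 to 0.0782), Psmb7 (-0.0379 to 0.2625), Psmb10 (-0.277 to 0.1511), Psme1 (-0.0491 to 0.395), Psme3 (-0.056 to 0.1302), Psme4 (-0.127 to 0.009), Psmf1 (-0.047 to 0.2691) and Psmg2 (-0.175 to 0.0402). None was called in any fit, and no direction is claimed for any of the 39. Log2 ratios of class sums moved by more than the replicate spread in 4 classes. The ranges were -0.266 to 0.2848 for inducible β genes and -0.0956 to 0.1057 for the lid. They were -0.0854 to 0.0395 for activators and -0.0475 to 0.2735 for Psmf1. With 2 libraries per group, a shift can pass this spread only narrowly, where the other group varies little. Passing it therefore does not set these 4 classes apart from the others. For the shares, leaving out 1 of 2 libraries cannot move the difference past the replicate spread used, and each member was on a single row. That all 40 alternatives stayed within this spread was therefore fixed in advance. The KO minus WT difference in the Psma8 share was 0.488 percentage points. It was 4.02 without KO replicate 1 and -3.04 without KO replicate 2. With 2 libraries per group, and about 17 fragments per kb at 1 FPKM, depth limits Psma5, Psmb8, Psmb9, Psmb11 and Psme2 most, since each rested on at most about 45.3 fragments in any library.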
